A study of Mus musculus with 8 samples.

Results

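The heat shock proteins and co-chaperones described here are 9 genes, taken by symbol from the 31053 genes of the count tables. They are Hspa1a, Hspa1b, Hspa8, Dnajb1, Hsph1, Hsp90aa1, Hsp90ab1, Hspd1 and Hspe1. The study profiled CD45+ immune cells, enriched with magnetic beads, by droplet-based single-cell RNA sequencing. Its labels list 4 samples from tumours in the brains of glioma-bearing mice and 4 samples from the brains of normal mice, and the title of the series concerns the transcription factor Nr4a2. The tumour model, strain, sex and age of the mice are not given in the sources used here. No label gives a treatment or a genotype for either group.

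Heat shock proteins are chaperones that bind unfolded proteins and help them to fold, stay soluble or be degraded. HSP70 proteins bind and release short unfolded stretches in a cycle driven by ATP, which J proteins such as Dnajb1 speed up and exchange factors such as Hsph1 reset; HSP90 proteins act later, on nearly folded clients such as kinases and receptors. Hspa8, Hsp90ab1 and the mitochondrial pair Hspd1 and Hspe1 are made in unstressed cells, whereas Hspa1a, Hspa1b and Dnajb1 are classic targets of heat shock factor 1 after stress, and enzymatic or warm dissociation of brain is known to raise such transcripts together with immediate early genes.

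The promoter stretches of the most variable pair and of a mitochondrial member are shown first, because they carry letters that match the recognition units of heat shock factor 1. A search on both strands of the RefSeq promoter windows (GRCm38.p6, 250 bases before to 50 after each gene start) used GAANNTTC or TTCNNGAA for a pair of units. GAANNTTCNNGAA or TTCNNGAANNTTC stood for a run of 3 units, which therefore always contains the pair. Capitals mark the match in these stretches. Hspa1a is at chr17:34972157-34972406 and Hspa1b at chr17:34959239-34959488, both on the minus strand and both written 5′ to 3′ up to the base before the gene start. The Hspe1 stretch, at chr1:55088053-55088082 on the plus strand, holds overlapping matches that together make up its capitals.
Hspa1a: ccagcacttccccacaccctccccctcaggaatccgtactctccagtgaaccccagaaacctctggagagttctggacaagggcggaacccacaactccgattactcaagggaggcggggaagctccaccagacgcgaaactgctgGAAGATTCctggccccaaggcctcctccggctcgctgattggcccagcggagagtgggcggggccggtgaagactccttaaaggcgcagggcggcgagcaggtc
Hspa1b: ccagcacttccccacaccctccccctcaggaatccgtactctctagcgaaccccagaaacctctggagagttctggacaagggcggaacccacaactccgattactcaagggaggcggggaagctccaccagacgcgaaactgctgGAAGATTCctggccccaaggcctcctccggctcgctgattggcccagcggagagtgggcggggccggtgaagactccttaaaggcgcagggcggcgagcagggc
Hspe1: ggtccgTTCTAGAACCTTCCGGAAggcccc

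The Hspa1a and Hspa1b stretches differ at 3 of 250 positions, counted from 1 at the 5′ end of the printed stretch: C44T, T47C and T249G, with the base of Hspa1a written first. In both genes the capitals begin 104 bases before the gene start. In Hspe1 they begin 89 bases before it, and the same DNA lies in a window of Hspd1, which is read in the opposite direction from the neighbouring start. The table held windows for 6 of the 9 members; Hspa8, Hsp90aa1 and Hsp90ab1 were not searched here. A pair of units was found in at least 1 window of 5 of those 6 members, which had 9 windows in all. It was found in 15.1% of 32851 single windows of mouse genes, so members and background are counted in unlike units. A run of 3 units was found for Hspd1, Hspe1 and Hsph1, the last of these inside the transcribed part of its window, and for 0.603% of all windows. For Hspd1 the run lay in the window of an inner start and not in that of the outermost start. Neither the pair nor the run was in the windows of Dnajb1. A match describes the letters in these windows and was not tested as a binding site.

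Each group came as 1 count table with no assignment of barcodes to samples, so each was treated as 1 pooled library and no test could be run. Of the barcodes with at least 1000 unique molecular identifiers (UMIs, each counting 1 captured RNA molecule), 11049 of 11565 in the glioma library and 13680 of 16017 in the control library had at most 10% mitochondrial UMIs and were taken as cells. Median depth was 11332 UMIs per cell in the glioma library and 6842 in the control library, and 41 barcodes passed these limits in both. Marker UMIs placed 90.6% of glioma cells and 96.9% of control cells in a class. Monocyte-derived macrophages made up 52.6% of glioma cells and microglia 91.0% of control cells. Levels are given as CPM, the UMIs of a gene per 1000000 UMIs of its class, with exact 95% intervals that cover counting error only and not differences between mice. Free RNA in the droplets of each library also held these transcripts, with Hspa1a at 2103 CPM in glioma, against 8395 CPM in control.

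Hspa1a and Hspa1b encode the near-identical stress-inducible HSP70 proteins, and in the larger classes their levels split by library. Over the 13 library-by-class sums of at least 50 cells, Hspa1a ran over an 81.9-fold range, and every glioma class lay below every control class. It was lowest at 144 CPM (133 to 155) in glioma cells gated by the keratins Krt8 and Krt18 and by Rhox5. Without that class Hspa1a lay between 1638 and 11778.5 CPM, a much narrower range. Glioma NK cells followed at 1638 CPM, then glioma T cells at 1813 CPM (1790 to 1837), glioma border-associated macrophages at 1839 CPM (1761 to 1919) and glioma dendritic cells at 1857 CPM (1825 to 1890). The intervals of these last 3 classes overlapped. Glioma monocyte-derived macrophages at 2578 CPM (2567 to 2589) and glioma neutrophils at 2643 CPM (2563 to 2724) also overlapped, and glioma myeloid cells of no finer gate had 2770 CPM. In the control library Hspa1a had 3929 CPM in endothelial cells, 5184 CPM in T cells and 7703 CPM in microglia. The highest values were 11131 CPM in control myeloid cells of no finer gate, which were shallow with a median of 1437 UMIs, and 11778.5 CPM in control border-associated macrophages. Hspa1b gave the same division, with glioma classes from 429 to 2079 CPM and control classes from 2350 to 7189 CPM. Smaller control classes did not all follow: 42 neutrophils had 2642 CPM of Hspa1a and 1763 CPM of Hspa1b, and 4 ependymal or choroid cells had 480 and 948 CPM, within the range of the glioma classes.

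**Figure D1:**
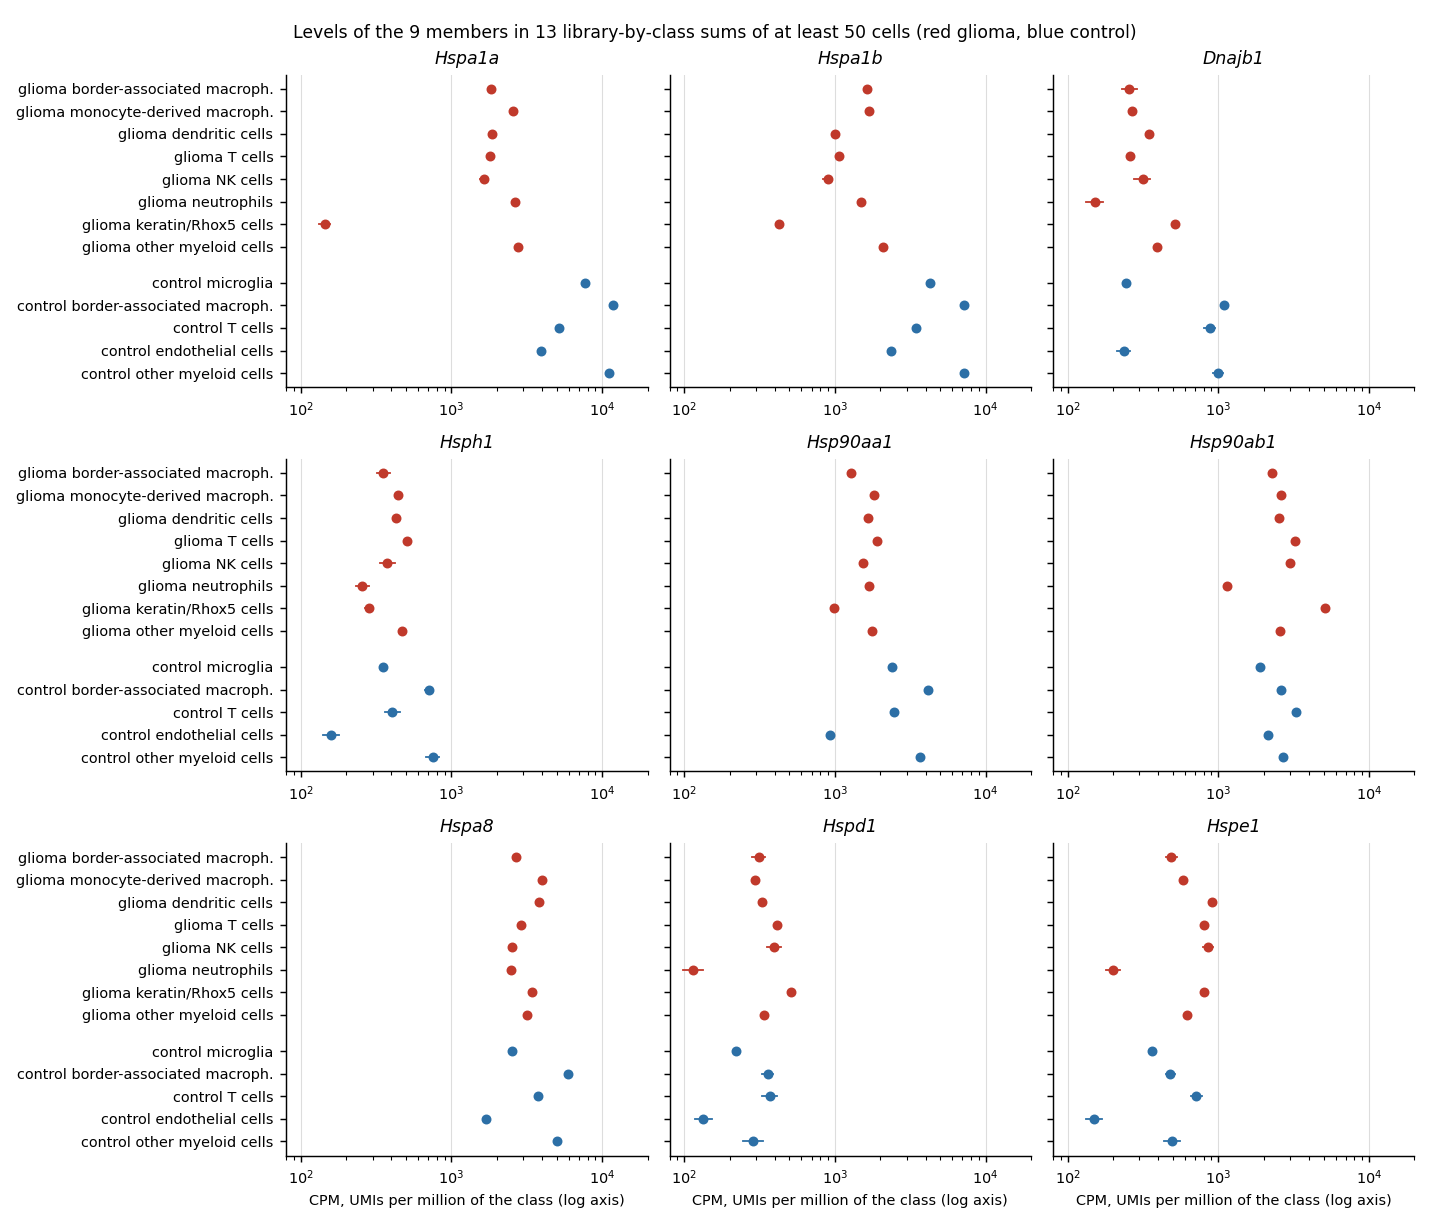
Each panel plots 1 gene, with the level in CPM on a log axis and 1 row per library and class; points are summed levels, bars exact 95% counting intervals, red glioma and blue control. Hspa1a and Hspa1b separate the libraries, with Hspa1a from 144 to 2770 CPM in glioma classes and from 3929 to 11778.5 CPM in control classes, whereas the libraries interleave for Hspd1 and Hspe1.

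Within the pair, Hspa1b held 31.9% to 47.1% of the pair's UMIs in the other 9 glioma classes of at least 25 cells, and 35.8% to 44.4% in the control classes of that size. In the keratin and Rhox5 cells it held 74.9% (73.2 to 76.6%), from 1938 Hspa1b and 650 Hspa1a UMIs. It was also above 50% in 2 classes of very few cells, at 66.4% (60.1 to 72.3%) in 4 control ependymal or choroid cells, and at 61.4% (51.2 to 70.9%) in 2 glioma mast cells. The pair can be told apart in 3′ libraries: 68.1% of 100-base windows of the Hspa1a coding sequence occur in the Hspa1b transcript, but 0 of 711 windows of its 3′ untranslated region do. These 106 cells had 10.6 CPM of Ptprc, the gene for CD45 itself, against 218 to 897 CPM in the other glioma classes of at least 25 cells, which goes against the CD45+ label. Their median depth of 37215 UMIs was the highest of the glioma classes.

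**Figure D2:**
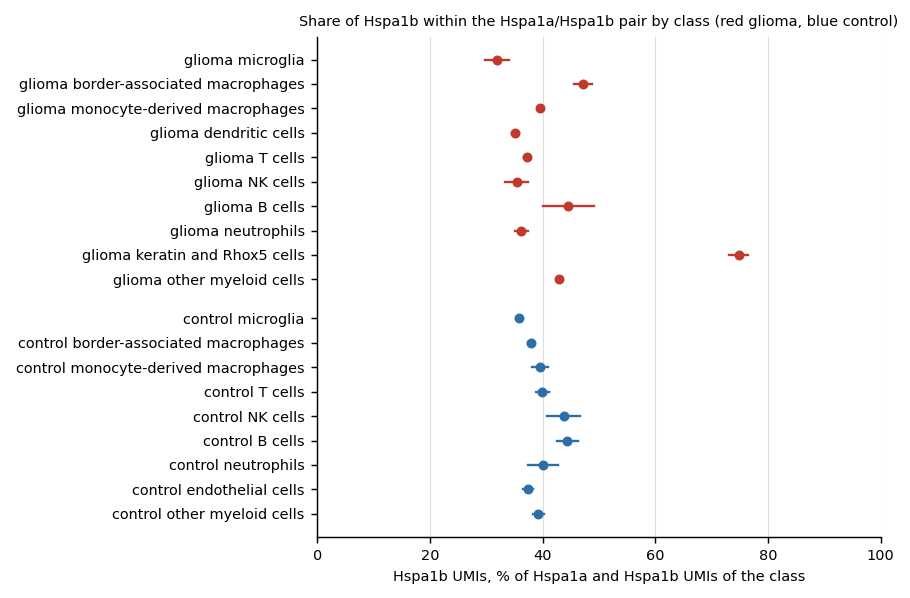
Each point is the percentage of Hspa1a plus Hspa1b UMIs that belonged to Hspa1b (horizontal axis, percent) in 1 class, with red glioma above blue control and exact 95% binomial bars. The keratin and Rhox5 cells stand at 74.9%, and all other classes shown lie between 31.9% and 47.1%.

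Against glioma T cells, the keratin and Rhox5 cells had 12.6-fold less Hspa1a (log2 −3.66) and 2.50-fold less Hspa1b (log2 −1.32), while Dnajb1 was 2.01-fold higher. Hsp90ab1, the constitutive cytosolic HSP90, had 5094 CPM in the keratin and Rhox5 cells and 3229 CPM in T cells. Its inducible relative Hsp90aa1 had 981 CPM in the keratin and Rhox5 cells and 1908 CPM in T cells. Hspe1, at 800 CPM in the keratin and Rhox5 cells and 806 CPM in T cells, did not differ beyond counting error (log2 −0.01, −0.07 to 0.04). The UMIs of Hsp90ab1 over those of Hsp90aa1 were 5.19 in the keratin and Rhox5 cells and 1.69 in glioma T cells. That ratio was 0.796 in control microglia and 0.636 in control border-associated macrophages.

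Dnajb1, the J protein that delivers clients to HSP70, followed another order. It was lowest in glioma neutrophils at 152 CPM (133 to 172), and 5 classes from both libraries lay between 236 and 268 CPM, control endothelial cells and microglia among them. The highest levels were 875 CPM in control T cells, 996 CPM in control myeloid cells of no finer gate and 1099 CPM (1051 to 1149) in control border-associated macrophages. Control microglia thus had the third-highest Hspa1a level but the third-lowest Dnajb1 level, at 243 CPM (239 to 246), within the interval of endothelial cells (214 to 261). Hsph1, an HSP110 family member that acts as exchange factor for HSP70, ranged only 4.72-fold, between 159 CPM in control endothelial cells and 750 CPM in control myeloid cells of no finer gate.

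The constitutive and mitochondrial members varied less between classes than Hspa1a, whose range was widened by the keratin and Rhox5 cells. Hspa8, the constitutive cytosolic HSP70, ranged 3.50-fold, between 1684 CPM in control endothelial cells and 5889 CPM in control border-associated macrophages. Hsp90ab1 ranged 4.48-fold, and without glioma neutrophils (1137 CPM) and the keratin and Rhox5 cells (5094 CPM) it lay between 1904 and 3261 CPM. Hsp90aa1 ranged 4.40-fold, from 935 CPM in control endothelial cells to 4117 CPM in control border-associated macrophages. Hspd1, the mitochondrial chaperonin subunit, and Hspe1, its lid, ranged 4.43-fold and 6.0-fold. Both were low in glioma neutrophils (115 and 201 CPM) and control endothelial cells (134 and 151 CPM). Hspd1 was highest in the keratin and Rhox5 cells at 509 CPM, and Hspe1 in glioma dendritic cells at 903 CPM. Together the 9 genes made up 10177 to 14233 CPM in glioma classes and 11719 to 34236 CPM in control classes.

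Of the 7 classes compared between glioma and control, the most members differed in border-associated macrophages, the macrophages of the meninges and vessel walls, with 58 glioma and 221 control cells. Here 6 of 9 members were at least 2-fold lower in glioma, as were 14.6% of the 8327 genes with at least 20 UMIs over both sums. None was at least 2-fold higher, where 17.3% of those genes were. The median log2 ratio of glioma over control was −1.14 for the 9 members and 0.11 for all genes. Hspa1a had 1839 CPM in glioma, against 11778.5 CPM in control, a log2 ratio of −2.68 (−2.74 to −2.61). Hspa1b had 1640 CPM in glioma, against 7185 CPM in control (log2 −2.13), and Dnajb1 had 257 CPM in glioma, against 1099 CPM in control (log2 −2.09). These 3 are the classic stress-inducible members. Hsp90aa1 had 1285 CPM in glioma, against 4117 CPM in control (log2 −1.68), and Hspa8 had 2669 CPM in glioma, against 5889 CPM in control (log2 −1.14). Hsph1 had 353 CPM in glioma, against 708 CPM in control (log2 −1.01). Thus the inducible members, the exchange factor and the constitutive HSP70 were all lower. Hsp90ab1 (log2 −0.20), Hspd1 (log2 −0.20) and Hspe1 (log2 0.02) were not 2-fold apart, and the interval of Hspe1 spanned 0. These cells were not alike in other markers: the microglial list summed to 82 CPM in glioma, against 2312 CPM in control, and the list for macrophages of blood origin to 1418 CPM in glioma, against 97 CPM in control. The part of these differences in the result was not tested.

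In T cells, with 1271 glioma and 77 control cells, 3 of 9 members were at least 2-fold lower in glioma (17.1% of 10703 genes were) and none was at least 2-fold higher (11% of genes were). The median log2 ratio was −0.37 for the members and −0.13 for all genes. Hspa1a had 1813 CPM in glioma, against 5184 CPM in control (log2 −1.52, −1.56 to −1.47). Hspa1b had 1072 CPM in glioma, against 3452 CPM in control (log2 −1.69). Dnajb1 had 258 CPM in glioma, against 875 CPM in control (log2 −1.76, −1.88 to −1.64). The 3 lower members are thus the stress-inducible HSP70 pair and its J protein. Hsp90ab1, at 3229 CPM in glioma and 3261 CPM in control T cells, did not differ beyond counting error (log2 −0.01, −0.07 to 0.05). Hsph1 (log2 0.32) and Hspe1 (log2 0.17) were slightly higher in glioma. Free RNA weighed more on the control T cells: judged by their C1qa UMIs, it could be at most 3.42% of UMIs in glioma T cells and 21.9% in control T cells. At that limit it would supply 1835 of the 5184 CPM of Hspa1a in control T cells but only 81.9 of the 875 CPM of Dnajb1.

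**Figure D3:**
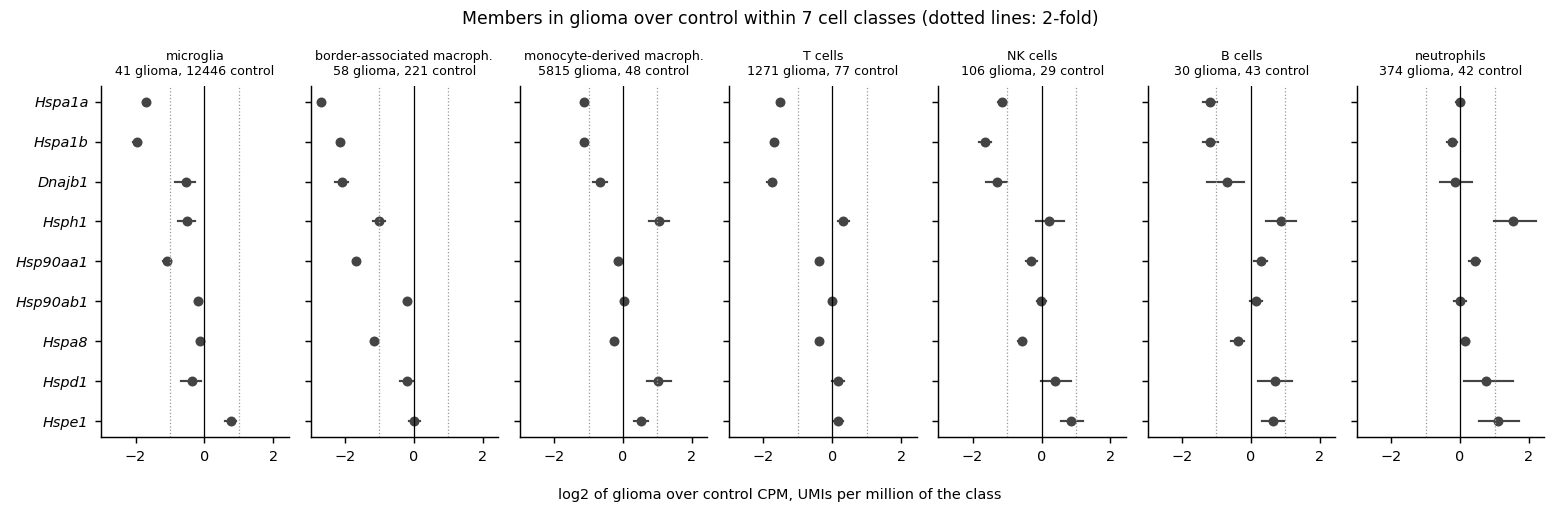
Each panel is 1 cell class with its number of glioma and control cells; the horizontal axis gives log2 of glioma over control CPM for each of the 9 genes, with exact 95% counting intervals and dotted lines at 2-fold. Hspa1a and Hspa1b lie left of the lower 2-fold line in 6 of 7 classes and near 0 in neutrophils, and Hsp90ab1 lies between −0.20 and 0.14 throughout.

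The other 5 classes found in both libraries had only 25 to 49 cells in the smaller one and were added after the data were seen. In microglia (41 glioma and 12446 control cells), Hspa1a had 2375 CPM in glioma, against 7703 CPM in control (log2 −1.70, −1.78 to −1.62). Hspa1b (log2 −1.95) and Hsp90aa1 (log2 −1.08) were also at least 2-fold lower there, so that 3 members were, against 19% of genes. None was at least 2-fold higher, against 18% of genes. The 41 glioma cells carried fewer microglial transcripts, with P2ry12 at 162 CPM in glioma, against 2223 CPM in control. In monocyte-derived macrophages (5815 glioma and 48 control cells), Hspa1a (log2 −1.13) and Hspa1b (log2 −1.13) were at least 2-fold lower, against 20.1% of genes; with each cell weighted equally Hspa1a was at −0.92. There Hsph1 (440 CPM in glioma, against 214 CPM in control, log2 1.03) and Hspd1 (294 CPM in glioma, against 143 CPM in control, log2 1.03) were at least 2-fold higher, against 13.5% of genes, and only 1 of them remained so with cells weighted equally or without the 5% of cells with most UMIs.

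In NK cells (106 glioma and 29 control cells) the same 3 members as in T cells were at least 2-fold lower, with Hspa1a at log2 −1.14, Hspa1b at −1.64 and Dnajb1 at −1.30, against 17% of genes. None was at least 2-fold higher, against 8% of genes. Free RNA at its limit would supply 66.2 of the 1638 CPM of Hspa1a in glioma NK cells and 1232 of the 3615 CPM in control NK cells, and without it the log2 ratio was −0.78. In B cells (30 glioma and 43 control cells) Hspa1a (log2 −1.18) and Hspa1b (log2 −1.17) were at least 2-fold lower, 2 members against 18% of genes, and none was at least 2-fold higher, against 7.42% of genes. In neutrophils (374 glioma and 42 control cells) Hspa1a had 2643 CPM in glioma, against 2642 CPM in control, and no member was at least 2-fold lower, against 9.67% of genes. Free RNA at its limit would supply 160 CPM of that in glioma and 1382 CPM in control, and without it the log2 ratio of Hspa1a was 0.84. Hsph1 (256 CPM in glioma, against 86.3 CPM in control, log2 1.54) and Hspe1 (201 CPM in glioma, against 93.0 CPM in control, log2 1.09) were at least 2-fold higher, against 21.6% of genes. With each cell weighted equally, or without the 5% of cells with most UMIs, no member passed 2-fold there. Free RNA at its limit of 16.5% of UMIs would supply 92.2 of the 93.0 CPM of Hspe1 in control neutrophils.

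Set side by side over the 7 classes, Hspa1a was lower in glioma beyond counting error in 6, Hspa1b in all 7 and Dnajb1 in 6. In neutrophils the log2 ratio of Hspa1b was −0.24, and 0.44 with free RNA subtracted. Hspa8 was lower in 6 and higher in neutrophils. Hspe1 was higher in glioma beyond counting error in 6 classes, by log2 0.17 to 1.09. By the same measure Hspd1 was higher in 3 and lower in 2, and Hsph1 was higher in 4 and lower in 2. With each cell weighted equally the log2 ratio of Hspe1 in T cells was −0.10. Hsp90ab1 was the steadiest, with log2 ratios between −0.20 and 0.14. Immediate early genes, the early transcripts of activation and dissociation, moved in the same classes: 22 of 24 listed genes were at least 2-fold lower in glioma in border-associated macrophages (14.6% of all genes were) and 21 of 24 in T cells (17.1%). They were also lower for 16 of 24 in microglia (19%), 20 of 22 in NK cells (17%), 10 of 22 in B cells (18%) and 8 of 24 in monocyte-derived macrophages (20.1%), where 2 were at least 2-fold higher (13.5%). Their summed level in T cells was 3494 CPM in glioma, against 12442 CPM in control, and in border-associated macrophages it was 5684 CPM in glioma, against 22365 CPM in control. In neutrophils, where 1 of 24 was lower (9.67%) and 5 were higher (21.6%), it was 17962 CPM in glioma, against 13120 CPM in control. Whether handling of the tissue or the tumour sets these levels cannot be told apart in this design.

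Counts of other chaperone genes past 2-fold are given with the share of all genes past it in the same direction in brackets. Of 91 further chaperone genes in 10 lists, 80 could be measured in T cells, and 3 were at least 2-fold lower in glioma (17.1%) and 3 higher (11%). In border-associated macrophages 8 of 78 were lower (14.6%) and 7 higher (17.3%), in microglia 14 of 88 were lower (19%) and 5 higher (18%), and in monocyte-derived macrophages 5 of 86 were lower (20.1%) and 11 higher (13.5%). In NK cells 5 of 66 were lower (17%) and 6 higher (8%), in B cells 4 of 44 were lower (18%) and 3 higher (7.42%), and in neutrophils 2 of 66 were lower (9.67%) and 8 higher (21.6%). The chaperonin TRiC and prefoldin fold actin and tubulin. Their genes had a median log2 ratio of 0.80 in border-associated macrophages and 0.33 in T cells. It was 0.31 in neutrophils, 0.10 in monocyte-derived macrophages, 0.06 in microglia, 0.001 in B cells and −0.07 in NK cells. In border-associated macrophages none of the 12 was at least 2-fold lower (14.6%) and 2 were higher (17.3%). In T cells none was lower (17.1%) and 1 was higher (11%).

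The small heat shock protein Hspb1, which holds unfolded proteins without ATP, met the rule for named genes in 5 of the 7 classes and was lower in glioma in each. It had 20.1 CPM in glioma, against 1077 CPM in control border-associated macrophages (log2 −5.71). It had 54.5 CPM in glioma, against 669 CPM in control monocyte-derived macrophages (log2 −3.62), 36.7 CPM in glioma and 297 CPM in control T cells (log2 −3.02), and 178 CPM in glioma and 1096 CPM in control microglia (log2 −2.62). In neutrophils it had 18.2 CPM in glioma, against 116 CPM in control (log2 −2.67). That rule picks genes for the size of their ratio, so the size of these differences cannot be weighed against the 9 members. Its values in NK cells and B cells, where it did not meet the rule, are not reported here. Free RNA was not subtracted for Hspb1. At its limit free RNA could be 21.9% of UMIs in control T cells and 16.5% in control neutrophils, and its part in those differences was not tested. In monocyte-derived macrophages the endoplasmic reticulum chaperone Pdia4 went the other way, with 72.1 CPM in glioma, against 18.2 CPM in control (log2 1.91).

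By variance over mean, cells of a class differed more in Hspa1a than in Hspa8 or Hspe1. To compare cells of unequal depth, each was thinned at random to 2000 UMIs. In glioma monocyte-derived macrophages (5736 cells) Hspa1a had a median of 1 UMI, a 90th percentile of 21 and a maximum of 109. Control microglia (11245 cells) had a median of 7, a 90th percentile of 43 and a maximum of 172. The variance over the mean, which is 1 for counting alone, was 18.2 for Hspa1a in those glioma macrophages, 13.9 in glioma T cells and 23.8 in control microglia. For Hspa8 it was 2.86 in the glioma macrophages, 2.35 in glioma T cells and 5.80 in control microglia. For Hspe1 it was 1.62, 1.69 and 1.66 in the same 3 classes. Where cells differ, this measure also rises with the level of a gene, and the part of level was not tested. The tenth of cells with most Hspa1a held 52.1% of its UMIs in glioma monocyte-derived macrophages, 55.8% in glioma T cells and 38.7% in control microglia, but of Hspa8 22.7%, 23.9% and 35.7% in the same order. Hspa1a was thus concentrated in few glioma cells and spread more widely in control microglia.

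**Figure D4:**
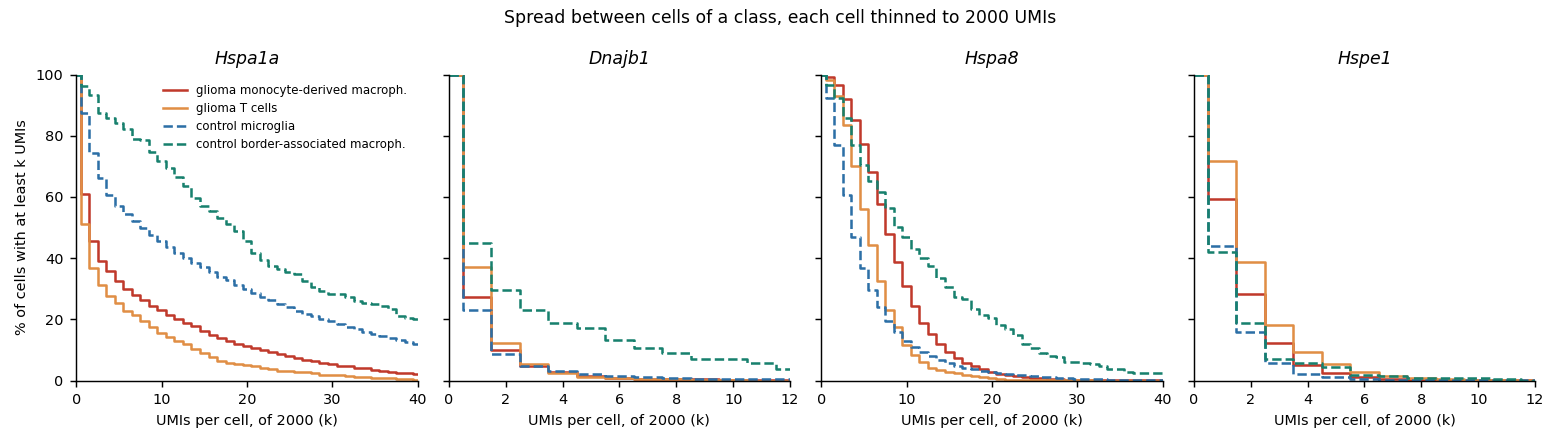
The vertical axis gives the percentage of cells with at least k UMIs of the gene and the horizontal axis k, after thinning every cell to 2000 UMIs; solid lines are 2 glioma classes and dashed lines 2 control classes. For Hspa1a the control lines lie above the glioma lines over the whole axis, with medians of 18 UMIs in control border-associated macrophages, 7 in control microglia and 1 in both glioma classes.

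The share of cells with at least 1 UMI of Hspa1a in the thinned data was 65.5% (51.9 to 77.5%) in glioma and 96.2% (92.6 to 98.3%) in control border-associated macrophages. For Dnajb1 it was 27.6% (16.7 to 40.9%) in glioma and 45% (38.1 to 52.0%) in control border-associated macrophages. Without thinning, Hspa1a was seen in 89.7% of glioma and 98.6% of control cells of this class, and Dnajb1 in 81.0% of glioma and 66.1% of control cells, so that depth reverses the order for Dnajb1. Hspa8 was seen in 98.3% of glioma and 96.7% of control border-associated macrophages. No class is known to lack these genes. The lowest share for Hspa1a in the glioma library was 11.4% (6.05 to 19.1%) of 105 keratin and Rhox5 cells (median depth 37215 UMIs), where free RNA at its limit would supply 34.8 of the 144 CPM. In border-associated macrophages (median depths 19117 UMIs in glioma and 8100 in control) no share of cells owed to background was set. Free RNA at its limit would supply 80.6 of their 1839 CPM of Hspa1a in glioma and 258 of the 11778.5 CPM in control. Free RNA was richer in Hspa1a in the control library, and shares in its small lymphocyte classes were not read.

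In the 4 classes given next, the inducible genes were found in the same cells more often than their separate shares would give. In glioma monocyte-derived macrophages, 13.4% of cells had Hspa1a or Hspa1b together with Dnajb1 and Hsph1, where the product of the 3 shares was 8.88%. In glioma T cells the values were 16.4% and 12.4%, in control microglia 10.6% and 6.45%, and in control border-associated macrophages 29.7% and 21.9%. In cells thinned to 4000 UMIs, Pearson's r of log2(UMIs + 1) between Hspa1a and Hspa1b was 0.85 over 5501 glioma monocyte-derived macrophages, 0.87 in glioma T cells and 0.73 in control microglia. Between Hspa1a and Hspa8 it was 0.09 in those glioma macrophages, 0.18 in glioma T cells and 0.53 in control microglia. Between Hspa1a and Hsp90ab1 it was 0.11, 0.16 and 0.48 in the same order. The constitutive members therefore varied with the inducible ones more in control microglia than in the glioma classes. These correlations are across cells of 1 library each, which share depth after thinning and free RNA, and are a description.

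Within each class, cells were put in 4 equal bins by their share of immediate early UMIs. In control microglia (3112 cells a bin) all 9 members were higher in the top than in the bottom bin. There Hspa1a had 12837 CPM in the top bin and 1823 CPM in the bottom bin, and Hspa8 had 4127 CPM in the top and 1069 CPM in the bottom bin. Dnajb1 had 507 CPM in the top and 64.5 CPM in the bottom bin, and Hspe1 had 471 CPM in the top and 225 CPM in the bottom bin. In control border-associated macrophages (56 cells in the bottom and 55 in the top bin) Dnajb1 had 2112 CPM in the top bin and 102 CPM in the bottom bin, and Hspa1a had 19932 CPM in the top and 4333 CPM in the bottom bin. In glioma monocyte-derived macrophages (1454 cells a bin) the inducible members were also higher in the top bin, with Hspa1a at 5649 CPM in the top and 1531 CPM in the bottom bin, and Dnajb1 at 453 CPM in the top and 183 CPM in the bottom bin. Hsp90ab1 (2502 CPM in the top and 2706 CPM in the bottom bin), Hspd1 (262 CPM in the top and 337 CPM in the bottom bin) and Hspe1 (501 CPM in the top and 662 CPM in the bottom bin) were lower in the top bin. Hspa8 had 4253 CPM in the top and 3740 CPM in the bottom bin of those macrophages. In glioma myeloid cells of no finer gate, Hsp90ab1, Hspd1 and Hspe1 were instead higher in the top bin. There Hsp90ab1 had 2866 CPM in the top and 2230 CPM in the bottom bin, Hspd1 360 and 291 CPM, and Hspe1 677 and 573 CPM. Their median depth was 12347 UMIs in the top and 5512.5 in the bottom bin. In glioma T cells Hspa1a had 3104 CPM in the top bin and 746 CPM in the bottom bin, while Hspe1 had 751 CPM in the top and 797 CPM in the bottom bin. Median depth differed too, at 8372.5 UMIs in the top and 16814 in the bottom bin of the glioma macrophages, against 6753.5 UMIs in the top and 5412 in the bottom bin of control microglia; its part was not tested.

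**Figure D5:**
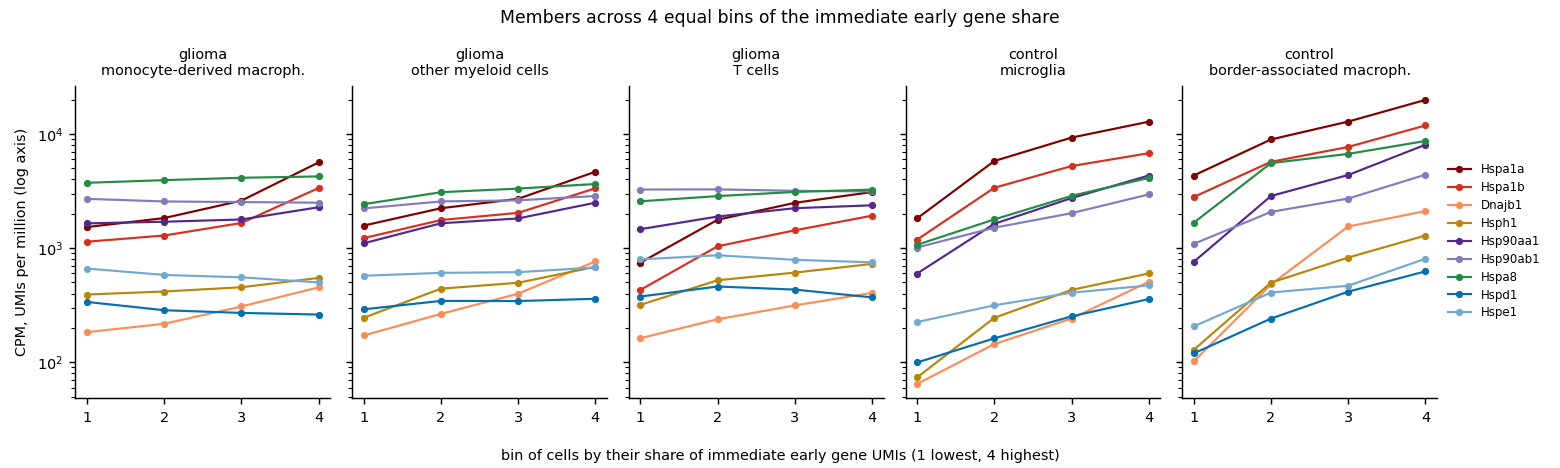
Lines join the CPM of each of the 9 genes (log axis) over bins of cells ordered by their immediate early gene share, 1 lowest and 4 highest, in 3 glioma classes at the left and 2 control classes at the right. In control microglia all lines climb, Hspa1a between 1823 and 12837 CPM, whereas in glioma monocyte-derived macrophages the lines of Hsp90ab1, Hspd1 and Hspe1 end lower than they begin. In glioma myeloid cells of no finer gate those lines end higher than they begin.

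Spearman's rho between the immediate early share and the summed share of Hspa1a, Hspa1b and Dnajb1 was 0.24 over glioma monocyte-derived macrophages, 0.31 over glioma T cells, 0.56 over control microglia and 0.66 over control border-associated macrophages. With Hspd1 plus Hspe1 it was −0.19, −0.04, 0.29 and 0.35 in the same order. Over glioma myeloid cells of no finer gate, rho was 0.41 with the inducible sum and 0.05 with Hspd1 plus Hspe1. These too are descriptions across cells of 1 library.

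Among 7612 glioma macrophages (monocyte-derived and of no finer gate), 3866 met more than 1 of the gates for macrophage states and were left aside. Of the rest, cells with Chil3 and Ly6c2, markers of recently arrived monocytes, had the most Hspa1a, 5607 CPM in 406 cells. Cells with Arg1, an arginine-degrading enzyme, had 3106 CPM (498 cells), and cells with Cxcl9, an interferon-induced chemokine, had 3094 CPM (1365 cells). Cells with Mki67 and Top2a had 2499.5 CPM (28 cells), and cells with Rsad2 and Ifit1 had 2187 CPM (49 cells). Cells with Mmp13 and Vcam1 had 1878 CPM (99 cells), and cells with Inhba and Nrg1 the least, 1257 CPM (178 cells). The 1123 cells that met none of the gates had 3522 CPM, second to the Chil3 and Ly6c2 cells. Median depth ran from 7577.5 UMIs in the Chil3 and Ly6c2 cells to 18302 in the Mki67 and Top2a cells, and its part was not tested. Hspa8 did not follow the order of Hspa1a, with 4247 CPM in the Chil3 and Ly6c2 cells and 4449 CPM in the Inhba and Nrg1 cells. Dnajb1 had 228 CPM in the Chil3 and Ly6c2 cells and 393 CPM in the Mmp13 and Vcam1 cells. Hsp90ab1 lay between 2083 and 2672 CPM in all gates.

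Cells with UMIs of both Mki67 and Top2a were set against cells with none of these nor of Birc5 and Cdk1. In 176 cycling and 803 other glioma T cells, Hspd1 had 506 CPM in cycling and 328 CPM in other cells (log2 0.63, 0.53 to 0.72), and Hsp90ab1 had 3710 CPM in cycling and 2872 CPM in other cells (log2 0.37). Hspa1a (1544 CPM in cycling and 1827 CPM in other cells, log2 −0.24) and Dnajb1 (206 CPM in cycling and 298 CPM in other cells, log2 −0.53) were lower in cycling cells. In glioma monocyte-derived macrophages (364 cycling and 4232 other cells) Hspd1 had 405 CPM in cycling and 267 CPM in other cells (log2 0.60), and Hspa1a had 2197 CPM in cycling and 2908 CPM in other cells (log2 −0.40). Dnajb1 (log2 0.04, −0.02 to 0.10) and Hsph1 (log2 0.25) were not lower in the cycling macrophages, and Hspa8 (log2 0.09) lay near the median of all genes (log2 0.13). Cycling T cells had a median of 18683 UMIs and other T cells 6519, and the part of depth was not tested.

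The genes whose levels over the 13 sums were most like the sum of Hspa1a, Hspa1b and Dnajb1, by Pearson's r of log2(CPM + 1) among 5393 genes, were Cic (r = 0.92), Zmiz1 (0.90), Nhlrc3 (0.90), Clcn4 (0.90) and Dyrk2 (0.90). Among those most like Hspd1 plus Hspe1 were Rps12 (0.94), Rpl35a (0.93) and Rpl22 (0.92), which encode ribosomal proteins, and Epb41l4aos (0.91). The 13 sums share 2 libraries. Over thinned single cells, the genes most like the inducible sum included Hsp90aa1 (0.56), Hspa8 (0.51), Hsp90ab1 (0.46) and Hsph1 (0.46) in 11245 control microglia. In 5736 glioma monocyte-derived macrophages they were Hsp90aa1 (0.41), Jun (0.37), Hsph1 (0.35), Ubb (0.32) and Atf3 (0.30). Hsp90aa1 thus led in both, and the immediate early genes Jun and Atf3 entered in the glioma macrophages.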

How the data were processed

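Droplet libraries of CD45+ cells were sequenced on an Illumina instrument. The authors deposited raw counts of UMIs per gene and barcode, 1 matrix for each group, without normalization and with all 6794880 barcodes of the kit, of which 1520157 in the glioma and 1679935 in the control table held a UMI. Per the submitters' processing notes, Cell Ranger 3.0.2, STAR, Seurat 3 and the builds GRCh38 and mm10 were used; identifiers in the tables were mouse identifiers. The libraries totalled 159689787 UMIs in glioma and 124023146 in control. No column or barcode could be tied to 1 of the 8 labelled samples.

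Cells were gated by raw marker UMIs, 2 to 4 markers of a class (at least 3 for most), with a limit on markers of other classes; cells meeting several gates (514 glioma and 237 control) were set aside as mixed, and no doublet caller was run. T, NK, B, dendritic and other non-macrophage classes had an added limit on C1q UMIs, set against free RNA, whose profile came from barcodes ranked 45000 to 90000 by UMIs. Gate limits, and the use of 8 microglial markers without Sparc, were set after the data were seen. Sums were scaled to CPM. Ratios are log2 with 0.5 UMIs added to each sum, over genes with at least 20 UMIs in both sums together, and a gene was counted at 2-fold. Intervals were exact (Poisson, binomial, conditional binomial). With 1 library per group no test was run. Calculations used Python 3.11.15, NumPy 2.4.6, SciPy 1.17.1 and pandas 2.3.3 and were checked on simulated counts. The 9 members, marker lists and chaperone lists were chosen with earlier results of these data known. Named genes outside the members were the 12 of the lists with the largest log2 ratio per class and at least 50 UMIs, and the 5 most alike genes. Some genes that met this rule are not reported here. Alternatives changed the UMI and mitochondrial limits, gates, scaling, shared barcodes and free RNA.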

Additional observations from a re-analysis of the deposited data

Results flagged for a closer look

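Hsph1, the exchange factor of HSP70, went in opposite directions in different classes. Its log2 ratio of glioma over control was −1.01 in border-associated macrophages (353 CPM in glioma and 708 CPM in control), but 1.03 in monocyte-derived macrophages (440 CPM in glioma and 214 CPM in control) and 1.54 in neutrophils (256 CPM in glioma and 86.3 CPM in control). The difference between these classes was not tested, since each group is 1 library. In neutrophils the log2 ratio was 0.02 with each cell weighted equally.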

How the results depend on the processing

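No paired analysis was possible because each group is 1 pooled library and the labels' numbers tie no sample of a group to a sample of the other. Precision is limited by the 25 to 77 cells of the smaller classes and by free RNA in the control library. Under the 12 settings tried for the members, the counts in border-associated macrophages, T cells and microglia stayed within 1.5 times of those given. All 23 ratios past 2-fold kept their sign under each; between 17 (each cell weighted equally) and 23 remained past 2-fold. With each cell weighted equally, 1 member was lower and 1 higher in monocyte-derived macrophages, 1 was higher in NK cells and 0 in neutrophils. Without the 5% of cells with most UMIs, 1 member was higher in monocyte-derived macrophages, NK cells and B cells, and 0 in neutrophils. Relative to the median gene, 1 was higher in NK cells, B cells and neutrophils, and 1 lower in B cells. With 1 more marker, 1 was lower in B cells and 1 higher in neutrophils; without mitochondrial and ribosomal UMIs, 1 was higher in NK cells. For the further chaperone genes, a minimum of 100 UMIs left 3 higher in microglia, 5 lower in border-associated macrophages, 2 lower and 1 higher in NK cells, 0 higher in B cells, and 0 lower and 4 higher in neutrophils. With no minimum, 8 were higher in microglia, 10 lower in monocyte-derived macrophages, 7 lower in T cells, 11 lower in NK cells, 12 lower and 9 higher in B cells, and 4 lower in neutrophils. A minimum changes how many genes enter; for the other settings the cause was not tested. Of 117 levels, 9 moved by over 1.5 times without mitochondrial and ribosomal UMIs, 7 with cells weighted equally, 2 without the 5% of cells and none under the other settings that give levels. Relative ratios give no level, and free RNA could not be subtracted from myeloid cells of no finer gate.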
